A study of Mus musculus with 10 samples.

Results

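Cytochrome P450 enzymes are heme proteins that use molecular oxygen to insert an oxygen atom into lipids, steroids, vitamins and foreign compounds. Their heme holds iron, and most of them sit in the endoplasmic reticulum, where they receive electrons from the reductase Por, while a few sit in mitochondria and receive them from ferredoxin. In fat, members of the family are known for handling fatty acids, sterols, retinoic acid and steroid hormones, and the family also includes enzymes that are best known from liver. The 96 P450 genes described here were chosen by gene name, as all genes on the array whose symbol is Cyp followed by a number, out of 55681 probes with which the array covers the mouse genome. No measured value entered this choice of members, but the family was picked with earlier results of these arrays in view. The 96 genes had 121 probes, of 60 bases each.

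RNA was measured in epididymal white adipose tissue (eWAT), the fat pad beside the epididymis, of 10 adult male mice that formed 1 group. By the protocol in the labels the mice were C57BL/6JOlaHsd wild types, while the strain label gives C57BL/6J. After 3 weeks on a low fat diet, all 10 received the high-fat diet for 12 weeks at 29 °C, and then desferrioxamine (DFO), an iron chelator, at 100 mg/kg body weight in daily injections over 5 days. They were killed on day 6 after 2 h without food. Each mouse's RNA carried the dye Cy5 and was set on 1 array against a Cy3 pool of RNA from all mice of the wider study, controls and these 10 mice included. Arrays of control mice were not analysed here, so no value below is an effect of DFO. Values are log2 ratios of Cy5 over Cy3, and differences between mice are the subject of the report. A dye bias of a probe cannot be told apart from a difference to the pool, because the dyes were not swapped.

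A probe was counted as expressed when it was well above background in both dyes on at least 5 of the 10 arrays. This held for 25049 probes of the array, and for 43 P450 probes of 37 genes. The first component of the expressed probes took 76.2% of their variance and set replicates 4, 5, 6 and 7 apart from the other 6 mice. The labels give no reason for this split, which did not follow the 5 slides, and it was used as a description and not as a comparison of groups. Log2 ratios of replicates 4 to 7 had an r of 0.88 to 0.95 with each other over expressed probes, and of -0.48 to 0.01 with those of the other mice. The lowest r between any pair of arrays over all probes was -0.33, and the direction of the ratio was kept because the labels state the dyes. Replicate 2 stood apart along the second component, with 8.75% of the variance.

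Many cell type markers moved with the same split. All 7 adipocyte markers were lowest in replicates 4 to 7, with a mean log2 ratio from -2.49 to -1.42, while the other mice ranged from -0.14 to 0.63. All 6 macrophage markers on the array were highest in replicates 4 to 7, with a mean of 0.79 to 1.03 against -1.17 to -0.11. The mean of the mast cell list lay at 0.24 to 1.67 against -0.75 to -0.35, and that of the endothelial list at -0.61 to -0.35 against -0.09 to 0.25. Kit of the mast cell list and Kdr of the endothelial list overlapped between these mice. The mean of the mesothelial list also ran low, from -1.62 to -1.10 against -0.57 to 0.29, though Wt1 and Upk3b overlapped. The mean of the stroma list overlapped, with -0.35 to -0.04 against -0.21 to 0.18. Within the stroma list Col1a1 was highest in replicates 4 to 7, at 0.47 to 0.66 against -1.05 to -0.01, and Cd34 and Dpp4 were lowest, at -0.93 to -0.57 against -0.08 to 0.29 and at -0.99 to -0.57 against -0.11 to 0.45. Of the epididymis markers only Rnase10 was expressed, and Crisp1, Lcn8, Lcn9 and Defb20 were above background in Cy5 on no array. Of the liver list Alb and Apoa1 were also above background on no array, while Serpina1a was so on all 10 and lowest in replicates 4 to 7, at -1.17 to -0.40 against -0.16 to 0.41. Of the 4 sperm and testis markers Prm1, Prm2 and Tnp1 were expressed and passed the variance test described with the P450 probes, and their mean per mouse ran from -2.79 to -2.10 in 9 mice and was -1.02 in replicate 2. No Leydig cell marker met the rule for expressed probes, but Star was above background in Cy5 on 8 arrays, and Hsd3b6 and Lhcgr were so on none. In whole tissue, fewer cells of a type and less RNA per cell cannot be told apart. The part of these cell types in the P450 values was not tested.

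The sequences shown here belong to the genes on which the results turn. Cyp2e1, which oxidises ethanol, acetone and fatty acids, was read by a pair of probes on chromosome 7. The upstream probe lies at chr7:147956922-147956981 on the plus strand of mm9, the build of the array's annotation, and has 1 reading frame with no stop codon. The downstream probe lies at chr7:147960628-147960687. The upstream probe is shown because its mouse-to-mouse spread could be set against that of the downstream probe.

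Cyp2e1 upstream probe: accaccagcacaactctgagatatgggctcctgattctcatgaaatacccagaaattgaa

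The expressed probe of Cyp2j8 and the brighter probe of Cyp2j6 are shown as neighbours in the Cyp2j cluster of chromosome 4. Products of this cluster oxidise arachidonic acid. The Cyp2j8 probe lies at chr4:96111331-96111390 and the Cyp2j6 probe at chr4:96192532-96192591, both on the minus strand of mm9. These probes shared no run of 20 or more bases with each other or with a probe of another P450 gene.
Cyp2j8 probe: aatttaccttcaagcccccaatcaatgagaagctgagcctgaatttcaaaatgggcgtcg
Cyp2j6 probe: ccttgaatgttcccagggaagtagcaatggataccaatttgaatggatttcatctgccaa

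Promoters from RefSeq (GRCm38.p6), from 250 bases before to 50 bases after the gene's start, are printed for 4 genes whose levels set replicates 4 to 7 apart under every scaling tried. The promoter of Cyp2e1 is chr7:140763569-140763868 on the plus strand, that of Cyp2j9 is chr4:96591436-96591735, that of Cyp1b1 is chr17:79715012-79715311 and that of Cyp51 is chr5:4104648-4104947, the last 3 on the minus strand. Capitals mark letters of 4 motifs searched on both strands, which are the common core promoter box written TATAAA, the core GCGTG of the element bound by the aryl hydrocarbon receptor, the C/EBP motif TTNNGCAA and the sterol response element TCACNCCAC.
Cyp2e1 promoter: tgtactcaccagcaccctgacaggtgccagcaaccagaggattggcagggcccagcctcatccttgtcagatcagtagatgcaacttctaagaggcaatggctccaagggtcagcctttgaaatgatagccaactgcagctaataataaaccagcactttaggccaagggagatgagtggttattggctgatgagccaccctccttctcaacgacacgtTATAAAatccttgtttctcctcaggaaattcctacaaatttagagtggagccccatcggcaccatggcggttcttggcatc
Cyp2j9 promoter: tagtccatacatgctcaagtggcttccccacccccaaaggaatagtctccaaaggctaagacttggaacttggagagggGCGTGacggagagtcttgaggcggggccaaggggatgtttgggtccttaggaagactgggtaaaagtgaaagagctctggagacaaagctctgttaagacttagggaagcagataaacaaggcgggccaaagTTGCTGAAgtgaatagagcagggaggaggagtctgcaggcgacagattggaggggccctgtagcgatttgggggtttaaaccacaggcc
Cyp1b1 promoter: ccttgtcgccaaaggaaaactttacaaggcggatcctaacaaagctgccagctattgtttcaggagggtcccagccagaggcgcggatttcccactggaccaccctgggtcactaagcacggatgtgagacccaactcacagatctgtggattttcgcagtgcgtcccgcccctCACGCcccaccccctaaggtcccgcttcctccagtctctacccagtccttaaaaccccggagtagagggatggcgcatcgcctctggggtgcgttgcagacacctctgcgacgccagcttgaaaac
Cyp51 promoter: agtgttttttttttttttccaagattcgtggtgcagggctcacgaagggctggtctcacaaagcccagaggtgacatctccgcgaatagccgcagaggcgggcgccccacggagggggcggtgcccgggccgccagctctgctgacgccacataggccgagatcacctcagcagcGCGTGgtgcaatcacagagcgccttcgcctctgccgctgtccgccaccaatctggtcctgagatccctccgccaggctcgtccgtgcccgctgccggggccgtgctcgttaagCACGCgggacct

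The Cyp2e1 window held 1 TATAAA, which starts 31 bases before the gene's start. The Cyp2j9 window held 1 GCGTG core and 1 C/EBP match, the Cyp1b1 window held 1 GCGTG core, and the Cyp51 window held 2. The letters TCACNCCAC were in neither strand of the Cyp51 window, and other forms of the sterol response element were not searched. Of the 37 expressed P450 genes, 26 had a promoter in the RefSeq table under their array symbol, and 10 of these 26 (38.5%) held GCGTG, against 32.4% of all 32851 promoters. TATAAA was in 5 (19.2%, against 13.6% of all), a C/EBP match in 5 (19.2%, against 10.8%) and the sterol element in 1 (3.85%, against 1.24%), that of Cyp2b10, where it overlapped a GCGTG core. A match is a description of the letters in this window only.

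Of the 43 expressed P450 probes, 24 varied more between arrays in Cy5 than in Cy3 at an adjusted p under 0.05 (Pitman-Morgan test of paired variances over 10 arrays, Benjamini-Hochberg adjustment over all expressed probes), which is 55.8% of them, against 59.8% of all 25049 probes. Here the pool channel, after normalization of both dyes, stands for the spread that arrays add to 1 and the same RNA. Spread that arises only in Cy5, from the dye or from labelling each mouse's RNA, cannot be told apart from spread between mice. These 24 probes belonged to 22 genes, and for 21 of them the representative probe passed. With slide as a block 17 of 43 passed (39.5%), against 41.2% of all. The probes that no longer passed were those of Cyp26b1, Cyp7b1, Cyp27a1, Cyp46a1, Cyp2b10, Cyp2d22 and Cyp2j13 and the ones of Cyp2r1 and Cyp20a1 that had passed. The Cyp17a1 probe and the other Cyp20a1 probe passed with the block but not in the test above. No P450 probe varied less in Cy5, and 27 passed at an unadjusted p under 0.05. The median SD between mice of the log2 ratio was 0.19 for expressed P450 probes and 0.18 for all expressed probes. Single P450 probes ran from 0.08 to 2.18, with 23 of 43 under 0.2 and 9 at 0.4 or more. In 4 of the 37 genes, Cyp2d11, Cyp2t4, Cyp26b1 and Cyp2s1, 1 mouse stood far from its neighbour in log2 ratio. The gap between them was past Dixon's critical value as a share of the whole range. This is 10.8% of the genes and 9.30% of the 43 P450 probes, against 5.18% of all expressed probes. For Cyp2t4 the gap was not seen in the Cy5 signal. The plot of SD by channel shows the range of SDs.

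**Figure D1:**
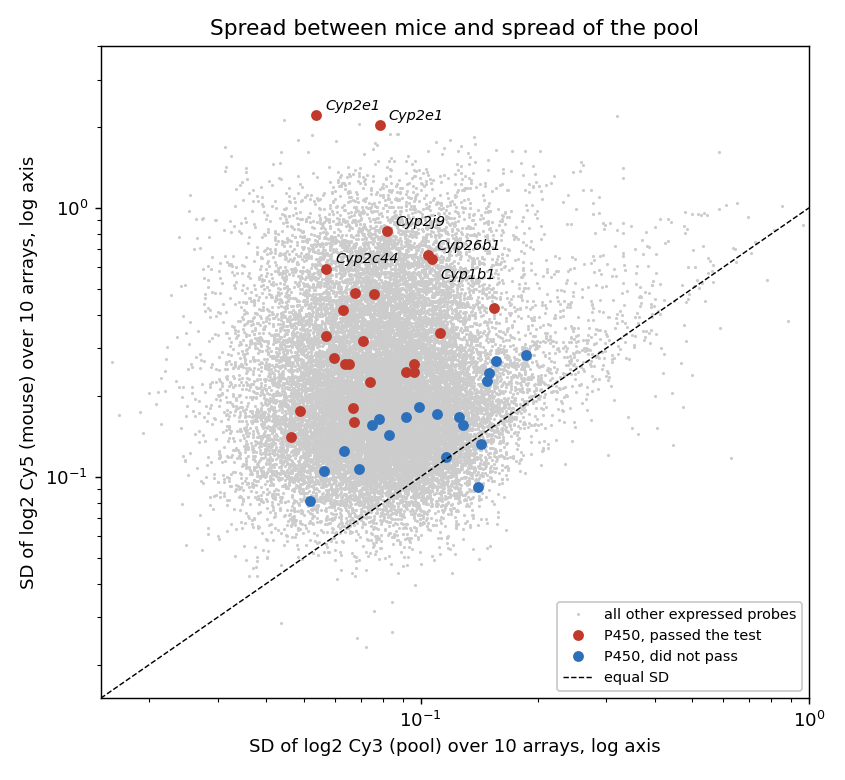
SD over 10 arrays of the log2 Cy5 signal (mice, vertical) against that of the log2 Cy3 signal (pool, horizontal), both on log axes, 1 point per expressed probe. P450 probes spread along most of the cloud of all 25049 probes, and both Cyp2e1 probes lie near its top with SDs of 2.02 and 2.21.

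Replicates 4 to 7 had the 4 lowest log2 ratios of all mice for 10 of the 43 P450 probes (23.3%), against 23.2% of all expressed probes. They had the 4 highest for 3 (6.98%), against 19.2% of all. With the median of each array set to 0 instead of loess, these shares were 11.6% and 11.6% for the P450 probes, against 7.04% and 17.4% of all probes, and the median of the expressed probes then lay between -0.14 and 0.53 over the arrays, where loess had it between -0.01 and 0.02. The order held under all 5 scalings for 5 probes that were lowest, of Cyp2e1 (both probes), Cyp2j9, Cyp2j13 and Cyp2b10, and for 2 that were highest, of Cyp1b1 and Cyp51. For Cyp2b10 this is no sign of stability, because its probe was not above background in Cy5 in replicates 4, 5 and 7 and passed the filter through the mice in which it was high.

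**Figure D2:**
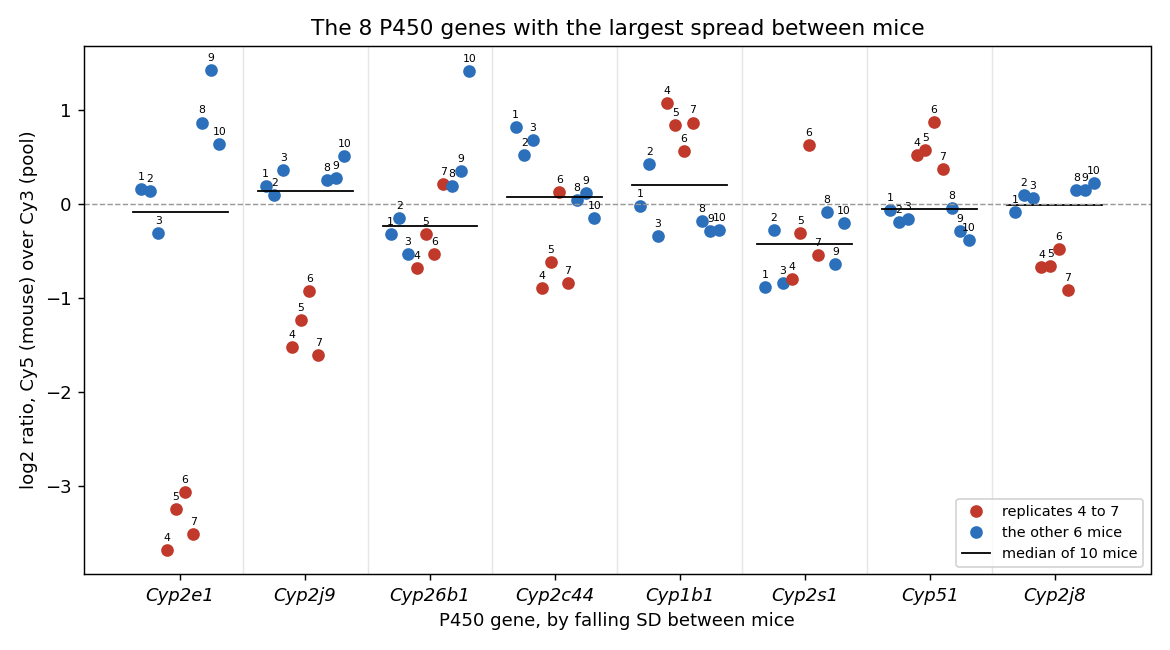
Log2 ratio of Cy5 (mouse) over Cy3 (pool) of the 8 P450 genes with the largest SD between mice, 1 point per mouse numbered by replicate, with the median of the 10 mice as a line. Replicates 4 to 7 lie below all other mice for Cyp2e1, Cyp2j9 and Cyp2j8 and above them for Cyp1b1 and Cyp51 (with median centring Cyp2j8 overlapped), while replicate 10 alone is high for Cyp26b1 and replicate 6 alone for Cyp2s1.

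Among enzymes of families 2 and 3, which oxidise fatty acids and foreign compounds, 18 of 53 genes were expressed. Of these 18, 10 passed the test, where 59.8% of all expressed probes did. Here and in the groups below, genes are counted by their representative probe, while shares of all probes include dimmer probes of a gene. The measures are therefore unlike. Cyp2e1 had by far the widest spread. Its log2 ratio at the downstream probe was 0.15, 0.13, -0.31, -3.68, -3.24, -3.06, -3.51, 0.86, 1.42 and 0.63 in replicates 1 to 10. The highest mouse, replicate 9, lay 34.4-fold above the lowest, replicate 4. Every mouse of replicates 4 to 7 lay at least 6.74-fold below the lowest of the other 6, a gap that was 3.18-fold with median centring. At the upstream probe these folds were 36.8 and 5.85, and the gap was 3.09-fold with median centring. The difference between the probes had an SD of 0.19 over mice. The SDs of 2.05 and 2.18 ranked as number 5 and number 3 of all 25049 expressed probes. The SD in Cy5 was 25.8 times that in Cy3 at the downstream probe (adjusted p = 4.8e-08, Pitman-Morgan test over all probes) and 41.1 times at the upstream probe (adjusted p = 4.61e-09). Without replicates 4 to 7 the SD of the downstream probe was 0.62, and both probes still passed, with adjusted p of 0.00535 and 0.00257 in the same test.

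All 4 expressed Cyp2j genes of the chromosome 4 cluster were lowest in replicates 4 to 7, at the probes that represent them. Of all expressed probes 23.2% had this order. Cyp2j9 stood at 0.19, 0.09, 0.36, -1.52, -1.23, -0.93, -1.60, 0.25, 0.27 and 0.51 in replicates 1 to 10 (SD 0.85, adjusted p = 5.04e-06). The lowest of the other 6 mice was 2.03-fold above the highest of replicates 4 to 7 (1.33-fold with median centring), and without these mice the SD was 0.14 and Cyp2j9 did not pass. Cyp2j8 stood at -0.08, 0.10, 0.06, -0.67, -0.66, -0.48, -0.92, 0.15, 0.14 and 0.23 (SD 0.42, adjusted p = 9.59e-05). Its gap between the sets of mice was 1.32-fold. Another Cyp2j8 probe was above background on no array in either dye. Cyp2j6 had a smaller spread, with an SD of 0.25, and lay between -0.49 and -0.30 in replicates 4 to 7 and between -0.06 and 0.17 in the others. The dimmer Cyp2j6 probe, above background in Cy5 on 7 arrays, did not follow, with -0.17 to 0.18 against 0.01 to 0.24 and an r of 0.43 with the brighter probe over the 10 mice. Cyp2j13 lay between -0.35 and -0.25 against -0.04 to 0.12 and also passed. Its further probes were above background in Cy5 on 3 and 2 arrays and did not count as expressed. Under median centring Cyp2j9 and Cyp2j13 were still lowest in replicates 4 to 7, as 7.04% of all expressed probes were, while Cyp2j6 and Cyp2j8 overlapped.

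Cyp2c44, an epoxygenase of arachidonic acid, split the mice otherwise. Its log2 ratio was 0.81, 0.52, 0.68, -0.90, -0.61, 0.13, -0.84, 0.04, 0.11 and -0.15 in replicates 1 to 10, with an SD of 0.61 and an adjusted p of 5.51e-06. Replicates 1 to 3 were the highest, replicates 8 to 10 lay near 0, and replicate 6 lay among the latter rather than with replicates 4, 5 and 7. The SD was 0.39 without replicates 4 to 7, and the gene still passed (adjusted p = 0.0417, Pitman-Morgan test). The other expressed Cyp2c genes, Cyp2c37, Cyp2c38 and Cyp2c70, had SDs of 0.11, 0.20 and 0.12 and did not pass. Cyp2b10, an enzyme induced by the receptor Nr1i3, lay between -0.54 and -0.09 in replicates 4 to 7 and between 0.21 and 0.72 in the others, with Cy5 above background on 7 arrays and in none of replicates 4, 5 and 7.

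Cyp2s1 stood at -0.89, -0.28, -0.84, -0.80, -0.31, 0.63, -0.54, -0.08, -0.64 and -0.21 (SD 0.46, adjusted p = 2.97e-05). Replicate 6 was far above the rest, and without it the SD was 0.30. The 3 expressed Cyp2d genes were each highest in replicate 2. Cyp2d11 was at 0.69 in this mouse against -0.31 to -0.02 in the others, Cyp2d12 at 0.37 against -0.63 to -0.02, and Cyp2d22 at 0.36 against -0.17 to 0.30. Without replicate 2 the SD of Cyp2d11 dropped from 0.29 to 0.09. Cyp2d22 passed with all mice (adjusted p = 0.0209) and did not without replicate 2 (adjusted p = 0.109) or without replicate 9 (adjusted p = 0.0675), while Cyp2d12 did not pass with all mice. Replicate 2 had the highest log2 ratio for 4 of the 43 P450 probes (9.30%), against 11.2% of all. The same mouse was highest for Krt8, a keratin of epithelia, at 1.91 against -2.25 to -0.23, and for Hnf4a, a transcription factor of epithelia and liver, at 1.66 against -2.17 to -1.64. Of the other mesothelial markers Krt19 was also highest in replicate 2, at 0.65, while Msln, Wt1 and Upk3b were not, at -0.96, -0.49 and -0.98. The sperm genes Prm1, Prm2 and Tnp1 were highest in replicate 2 as well, at -1.37, -0.79 and -0.89. The part of such cells in the Cyp2d values was not tested.

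Of the remaining genes in these families, Cyp2f2, Cyp2t4, Cyp2u1 and Cyp3a13 did not pass. Cyp2f2, known from the lung for oxidising naphthalene, lay between -0.43 and 0.23 with an SD of 0.19 and overlapped between the sets of mice. Cyp3a13, of a subfamily best known for breaking down drugs, had an SD of 0.08, near the lower end of the family. Cyp2u1 was represented by its brightest probe, which holds a run of 32 alternating G and T bases, and replicates 4 to 7 lay lowest there, between 0.27 and 0.37 against 0.48 to 0.70. The second expressed Cyp2u1 probe lay between -0.06 and 0.18 against 0.00 to 0.25, and the remaining probe was above background in Cy5 on 1 array. The expressed probes of Cyp2u1 gave unlike values, and the order at the brightest probe, by which Cyp2u1 is counted, was lost with median centring and in the deposited table.

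In family 1, Cyp1b1 was expressed and Cyp1a1 and Cyp1a2 were not. Cyp1b1 oxidises oestrogens and aromatic hydrocarbons and is a known target of the aryl hydrocarbon receptor. It stood at -0.02, 0.43, -0.34, 1.07, 0.83, 0.56, 0.86, -0.18, -0.28 and -0.28 in replicates 1 to 10, with an SD of 0.55 and an adjusted p of 1.09e-06. Replicates 4 to 7 were the highest, 1.10-fold or more above replicate 2, which in turn lay above the other 5 mice. Without replicates 4 to 7 the SD was 0.29 and the gene still passed (adjusted p = 0.00707, Pitman-Morgan test).

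Family 4 enzymes hydroxylate fatty acids and leukotrienes at or near their end. Of 20 genes 8 were expressed, and Cyp4b1, Cyp4f18 and Cyp4v3 passed, where 59.8% of all expressed probes did. None of these 3 passed with median centring, with the scanner software's signals or without normalization between arrays. Cyp4b1 stood at -0.15, -0.52, -0.13, -0.45, -0.61, -0.74, -0.61, 0.18, -0.03 and -0.05 (SD 0.31, adjusted p = 0.000112). Replicate 2 lay among replicates 4 to 7, and these 5 mice were below the other 5. Cyp4f18, which inactivates leukotrienes in white blood cells, stood at 0.46, 0.10, 0.39, -0.47, -0.12, -0.01, -0.20, 0.02, -0.09 and 0.28 (SD 0.28, adjusted p = 0.000888). Replicates 1 and 3 were the highest and replicate 4 the lowest. Its second probe covers the same place shifted by 1 base, with 3 mismatches over the 59 bases in common, and gave the same SD of 0.28, so these probes are not independent. Cyp4v3 lay between -0.52 and -0.35 in replicates 4 to 7 and between -0.09 and 0.17 in the others. Its call was lost without replicate 3, 4 or 7, with adjusted p of 0.0519, 0.0917 and 0.0505. Cyp4a10 and Cyp4a31, targets of the receptor Ppara, shared a run of 34 bases between their probes and did not pass, with SDs of 0.14 and 0.15. Cyp4f13, Cyp4f16 and Cyp4f17 did not pass either, with SDs of 0.18, 0.17 and 0.08, though Cyp4f13 lay between 0.17 and 0.44 in replicates 4 to 7 and between -0.22 and 0.11 in the others.

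Of 7 genes of sterol and bile acid metabolism 5 were expressed, and all 5 passed, where 59.8% of all expressed probes did. With slide as a block Cyp7b1, Cyp27a1 and Cyp46a1 did not pass. With the scanner software's signals only Cyp51 and Cyp7b1 did. Cyp51, the lanosterol demethylase of cholesterol synthesis, stood at -0.07, -0.19, -0.16, 0.52, 0.58, 0.87, 0.37, -0.05, -0.29 and -0.38 in replicates 1 to 10 (SD 0.43, adjusted p = 2.11e-05). Replicates 4 to 7 were all above the other 6, by 1.34-fold or more, and without them the SD was 0.13 and the gene did not pass. Cyp7b1, which hydroxylates oxysterols, stood at 0.17, 0.27, -0.12, -0.03, 0.06, 0.24, 0.39, -0.31, -0.53 and -0.43 (SD 0.31, adjusted p = 0.000908). Replicates 8 to 10 were the lowest and the rest overlapped. Cyp27a1, the mitochondrial sterol hydroxylase, had a narrow range, at -0.01, 0.04, -0.09, -0.13, -0.07, -0.06, -0.14, -0.01, 0.22 and 0.12 (SD 0.11, adjusted p = 0.00188). It was printed in 10 spots per array, whose mean had a standard error of 0.03, so its array means were measured more precisely than those of a probe with 1 spot. Cyp39a1 and Cyp46a1, other sterol hydroxylases, had SDs of 0.27 and 0.16. The call of Cyp39a1 was lost without replicate 4 (adjusted p = 0.0855) and that of Cyp46a1 on leaving out any 1 of 8 mice, with adjusted p from 0.0571 to 0.165. Cyp7a1 and Cyp8b1, which make bile acids in liver, were above background on no array.

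Of the 6 genes of steroid hormone synthesis, Cyp17a1 and Cyp21a1 were expressed and neither passed, with SDs of 0.24 and 0.10. With slide as a block Cyp17a1 passed. Cyp11a1, which starts steroid synthesis, was above background in neither dye on any array. Cyp26b1, which breaks down retinoic acid, was at -0.32, -0.15, -0.54, -0.68, -0.32, -0.53, 0.21, 0.19, 0.35 and 1.41 in replicates 1 to 10 (SD 0.62, adjusted p = 4.39e-05). Replicate 10 was far above the rest, and the SD without it was 0.37. Replicates 7, 8 and 9 came next, so replicate 7 was apart from replicates 4 to 6 here. Cyp2r1, a vitamin D hydroxylase, had 2 expressed probes that disagreed, with an r of -0.49 over the 10 mice. The brighter did not pass (adjusted p = 0.219) and the other did (adjusted p = 0.0019). Cyp20a1, a member with no settled substrate, also had probes that disagreed, with an r of -0.33, of which the brighter passed (adjusted p = 0.00381).

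**Figure D3:**
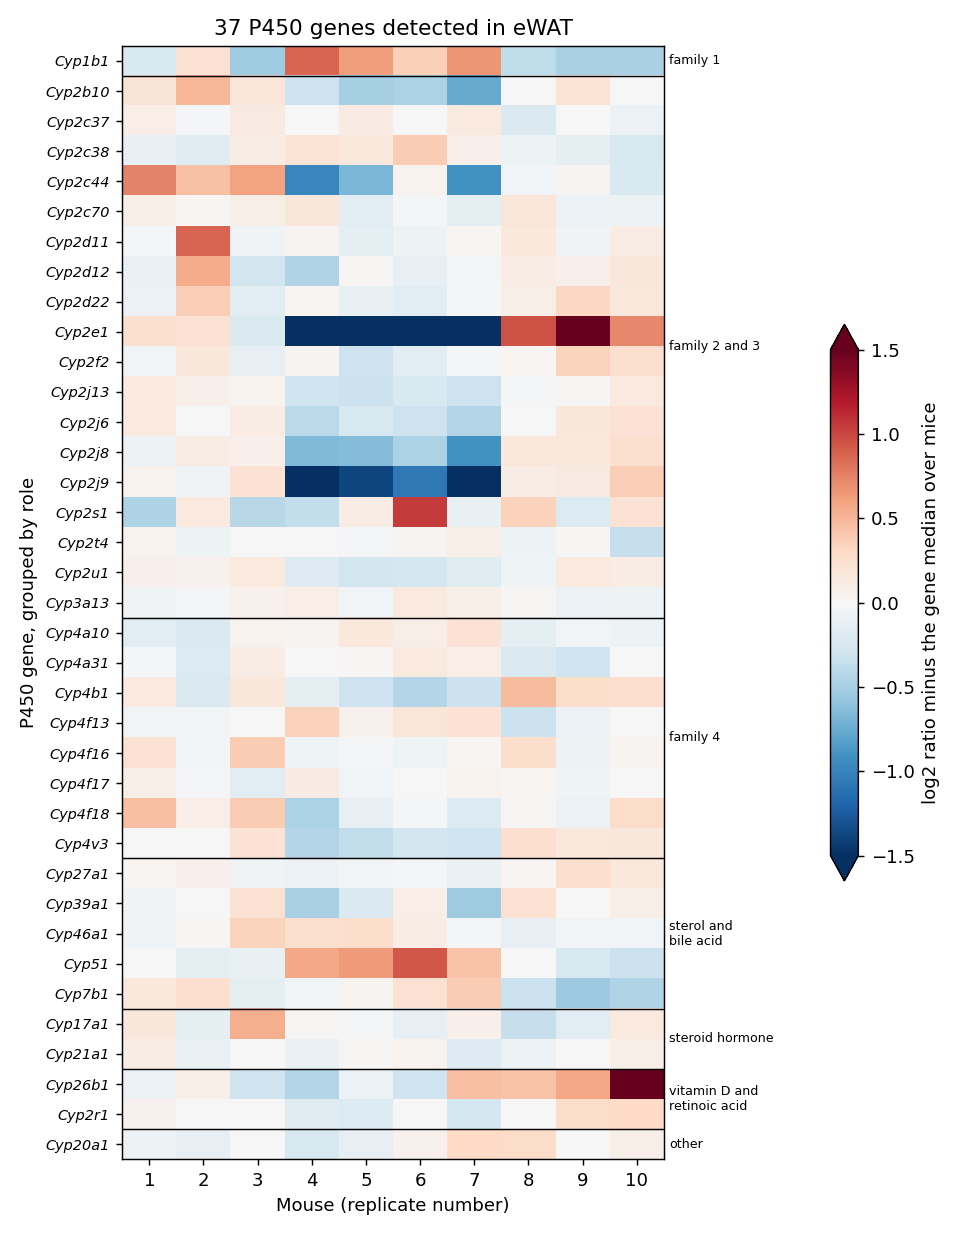
Log2 ratio of each expressed P450 gene minus its median over the 10 mice, in colour (red above, blue below, limited to 1.5 in either direction), with genes in rows by role and mice in columns. The 4 columns of replicates 4 to 7 are blue for Cyp2e1 and the 4 Cyp2j genes and red for Cyp1b1 and Cyp51, of which Cyp2j6 and Cyp2j8 overlapped with median centring, and the column of replicate 2 is red for the 3 Cyp2d genes.

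Of the 59 genes that were not expressed, 38 were above background in Cy5 on no array by any probe and 20 on 1 to 4 arrays, and Cyp2d10 was so on 7 arrays in Cy5 but on 2 in Cy3. Cyp2d26 was above background on 10 arrays in the pool and on 4 in the mice, at a log2 ratio of 1.43 in replicate 2 and -0.84 to -0.48 in the others. Not expressed were also Cyp19a1, the aromatase that makes oestrogens, Cyp11b1 and Cyp11b2, which finish corticoid synthesis, Cyp24a1 and Cyp27b1, which break down and activate vitamin D, and Cyp26a1 and Cyp26c1, relatives of Cyp26b1. The same held for Cyp3a11, a main drug-oxidising P450 of liver, and Cyp4a14, a liver target of Ppara.

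Many genes that work with the P450 family also varied more in Cy5 than in Cy3. Of 61 expressed genes of redox partners, regulators, heme metabolism, sterol synthesis, retinoid handling and epoxide hydrolysis, each read by its brightest probe, 50 varied more in Cy5 than in Cy3. The share over all expressed probes was 59.8%, but it includes the dimmer probes of a gene, so the measures are unlike. No excess was tested, here or in the single lists below, which were chosen with earlier results of these data known. Among electron donors and their helpers 9 of 10 passed. Fdx1, the ferredoxin of mitochondrial P450s, lay between -0.92 and -0.65 in replicates 4 to 7 and between 0.08 and 0.52 in the others. Cyb5, which gives electrons to P450s of the endoplasmic reticulum, lay between -0.88 and -0.52 against -0.14 to 0.55, and Cyb5b, its form on mitochondria, between -0.94 and -0.22 against 0.14 to 0.30. Por, which also passed, overlapped, with -0.19 to -0.04 against -0.06 to 0.57. The rest of this list went both ways, with Pgrmc1 and Cyb5r1 highest and Pgrmc2 and Cyb5r3 lowest in replicates 4 to 7, while Fdxr and Fdx1l overlapped.

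Of 16 expressed regulators 12 passed, and the largest SDs were those of Hnf4a (1.13, with replicate 2 alone high), Srebf2 and Pparg. Srebf2, which drives genes of sterol synthesis, lay between 0.98 and 1.25 in replicates 4 to 7 and between -1.43 and -0.01 in the others. Pparg, the receptor that maintains adipocytes, lay between -1.01 and -0.56 against -0.06 to 0.59. Ahr, the aryl hydrocarbon receptor, did not pass (SD 0.13, adjusted p = 0.101, Pitman-Morgan test). In heme metabolism 10 of 12 passed. Hmox1, which opens heme and frees its iron, lay between 0.72 and 1.47 against -1.74 to -0.92, and Blvrb and Blvra, which reduce the product, lay at 0.60 to 1.40 against -0.80 to -0.09 and at 0.27 to 0.54 against -0.66 to -0.08. The synthesis enzymes went both ways, with Alas1 and Cpox highest and Alad, Uros, Urod and Fech lowest in replicates 4 to 7.

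In sterol synthesis 11 of 13 passed. Sqle, which oxidises squalene, lay between 0.37 and 0.93 in replicates 4 to 7 and between -0.94 and -0.07 in the others, and Sc4mol, the enzyme after Cyp51 that removes methyl groups, between 0.43 and 0.75 against -0.80 to -0.21. Hmgcs1, Fdps, Idi1, Insig1, Fdft1, Nsdhl and Lss overlapped between these mice. Of the retinoid genes 6 of 8 passed. Rbp4, which carries retinol in blood, lay between -3.56 and -1.87 against -0.31 to 0.91. Aldh1a1 and Aldh1a3, which make retinoic acid, lay at -1.73 to -1.03 against 0.13 to 0.54 and at -1.18 to -0.78 against -0.27 to 0.48. Ephx2, which hydrolyses epoxides of arachidonic acid, lay between -1.47 and -0.57 against -0.70 to 0.22.

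For 9 pairs of a P450 gene and a gene list, the relation between mice was measured. In 7 of these pairs replicates 4 to 7 formed a cluster of their own on at least 1 axis, so r was taken over the other 6 mice, where an exact two-sided permutation test can reach a p of 0.00278. No pair passed after adjustment over the 9, but with median centring Cyp2e1 (r 0.95), Cyp4b1 (0.98), Cyp1b1 (0.93) and Cyp51 (0.91) passed over the same 6 mice. Under that scaling the median of the expressed probes lay between -0.14 and 0.53 over the arrays. Such an offset is shared by a gene and a list on the same array, and its part in these r values was not tested. Cyp4b1 had an r of 0.88 with the adipocyte list over 6 mice (exact permutation p = 0.0153, adjusted p = 0.102, rho 0.77 with exact p = 0.103), which came to 0.55 after leaving out the pair of mice with the most extreme list values. Cyp2e1 had an r of 0.76 with the adipocyte list (exact permutation p = 0.0569, adjusted p = 0.102, rho 0.89 with exact p = 0.0333), and 0.87 after leaving out such a pair. Cyp1b1 had an r of 0.78 with the stroma list (exact permutation p = 0.0417, adjusted p = 0.102, rho 0.89 with exact p = 0.0333), and 0.88 after leaving it out.

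Cyp51 had an r of 0.83 with the sterol synthesis list over the 6 mice (exact permutation p = 0.0361, adjusted p = 0.102, rho 0.49 with exact p = 0.356). After leaving out the pair with the most extreme list values r was -0.79, so the relation rests on replicates 9 and 10. Cyp27a1 had an r of -0.82 with the macrophage list (exact permutation p = 0.05, adjusted p = 0.102, rho -0.66 with exact p = 0.175), and -0.97 after leaving out such a pair, but 0.12 with median centring. For Cyp4f18 and macrophages r was 0.46, and for Cyp26b1 and endothelium 0.27, with exact permutation p of 0.353 and 0.497. Over all 10 mice Cyp7b1 and Cyp26b1 had an r of 0.10 and 0.32 with the stroma list (permutation p of 0.772 and 0.389). The planned pair of Cyp11a1 and the mast cell list could not be measured, since Cyp11a1 was not expressed.

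**Figure D4:**
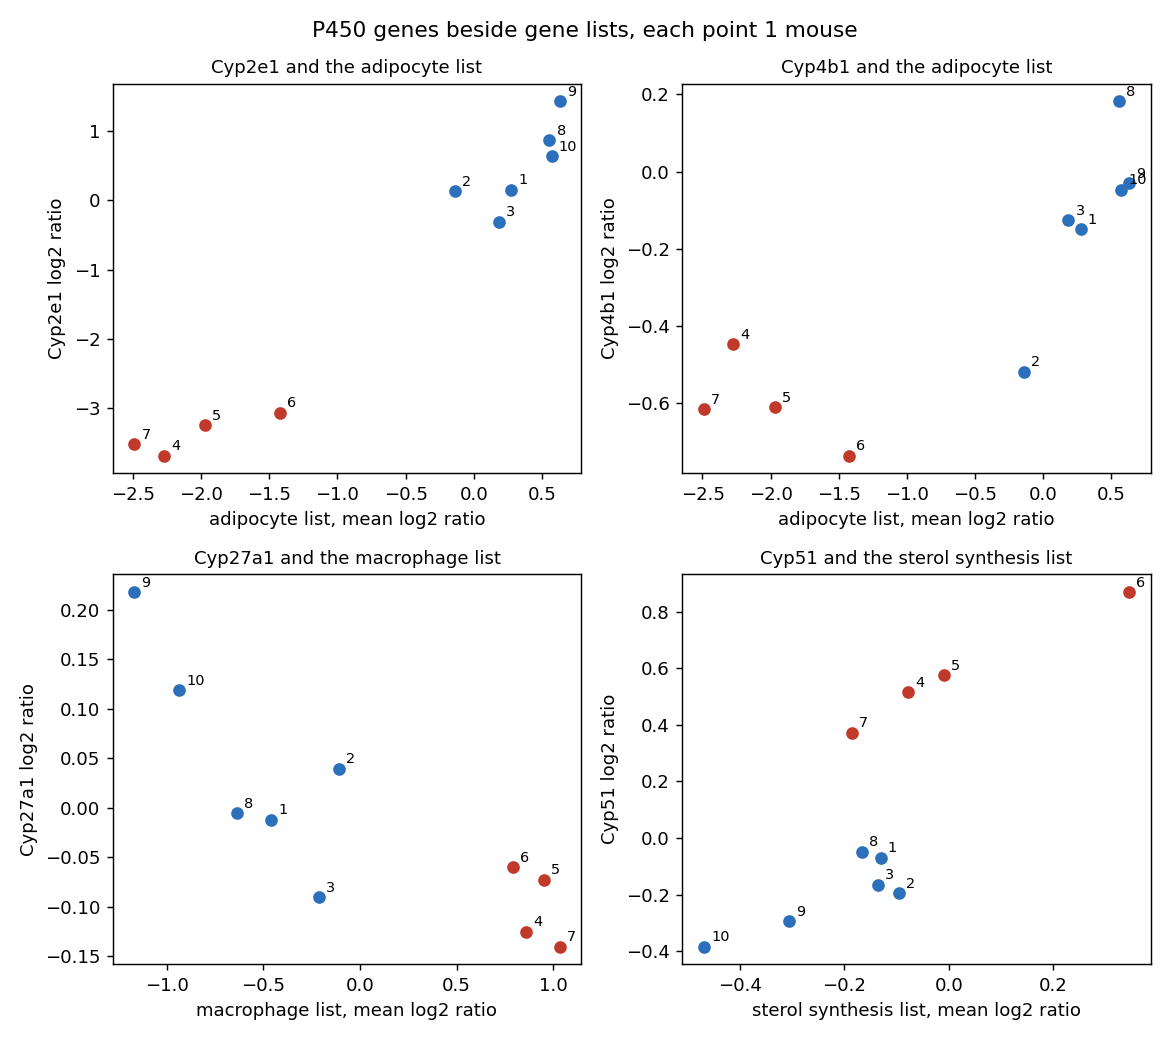
Log2 ratio of 4 P450 genes against the mean log2 ratio of a gene list, 1 point per mouse numbered by replicate, with replicates 4 to 7 in red and the other 6 mice in blue. In all 4 panels replicates 4 to 7 lie apart from the other 6 mice on at least 1 axis, for Cyp4b1 on that of the list. So r was taken over the blue points, where no pair passed after adjustment. With median centring, which is not plotted, 4 pairs passed and r of Cyp27a1 was 0.12. Arrays then differed in the median of the expressed probes, an offset that gene and list share.

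Slide, with 2 arrays on each of 5 slides, passed limma's moderated F test for 0 of the 43 P450 probes and for 0 of all 25049, with 4 and 1010 at an unadjusted p under 0.05. All p-values rest on these 10 samples, and none compares groups of mice. Those of the Pitman-Morgan test set the Cy5 variance against the Cy3 variance over arrays. Those of the F test set slides against each other, and those of the pairs come from permuting mice. Median Cy5 signals of 54.8 to 81.3 stood over a background of 32 to 37, which limits the precision for dim probes.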

How the data were processed

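RNA of eWAT from 10 mice was hybridised on 10 two-colour Agilent arrays. The authors deposited scanner files made with Agilent Feature Extraction 10.7.3.1, whose intensity values are spot and background brightness in each dye without normalization, and whose log10 ratios of Cy5 over Cy3 were computed by that software after background subtraction and dye normalization. A table of log2 values, normalized by the authors, was also deposited. That its scale is log2 was found from the values, which followed log2 Cy5 with an r of 0.994 or more over 30733 spots, and its normalization is not given in the sources used here.

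Intensity was corrected with normexp (offset 50) and normalized by loess within and Aquantile between arrays with limma 3.58.1 in R 4.3.3. Control and outlier spots were left out, and spots of 1 probe were averaged. A gene was represented by its expressed probe with the highest mean log2 Cy5. Variances of log2 Cy5 and log2 Cy3 were compared by the two-sided Pitman-Morgan test over 25049 probes, slides by limma's moderated F test, and pairs by permutation (all orders for 6 mice, 100000 draws for 10), and all p-values were adjusted by the Benjamini-Hochberg method, with 0.05 as threshold. The scripts were tested on simulated data. All expressed P450 genes are named, with values of every mouse for the 8 with the largest SD and for the genes of the pairs. In the other lists, genes among the 3 largest SDs that passed are named with values, except for items not reported here, and Por and Ahr were added after their values were seen. Members and lists were chosen with earlier results of these data known. Symbols are those of the array, and 93 of 96 P450 symbols were in the RefSeq table. Binding of probes to transcripts of related genes was not tested. Alternatives changed the background correction, scaling, filter, probe choice, slide term and mice.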

Additional observations from a re-analysis of the deposited data

Results flagged for a closer look

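Of the 37 expressed P450 genes, 4 had 1 mouse far from the others in log2 ratio, which is 10.8% of them. Counted by probe it was 4 of 43 (9.30%), against 5.18% of all 25049 expressed probes. Chance alone gives this for about 1 group in 20, and no excess among the 37 genes was tested. The measure is the gap between the extreme mouse and its neighbour as a share of the whole range. For Cyp2d11 this share was 0.709, with replicate 2 at 0.69 and the others between -0.31 and -0.02. For Cyp2t4 it was 0.609, with replicate 10 at -0.22 and the others between 0.04 and 0.21, and it did not pass the variance test. Its log2 Cy5 in replicate 10, at 6.68, lay inside the range of the other mice, 6.52 to 6.77. The SD of Cyp2t4 was 0.09 in Cy5 and 0.14 in the pool, which was above background on 5 arrays. The gap of Cyp2t4 is thus one of the ratio and not of the mouse signal. For Cyp26b1 it was 0.51, with replicate 10 at 1.41 and the others between -0.68 and 0.35. For Cyp2s1 it was 0.468, with replicate 6 at 0.63 and the others between -0.89 and -0.08.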

How the results depend on the processing

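The count of P450 probes that varied more in Cy5, 24 of 43, came to 8 with the scanner software's own signals (29.2% of all probes passed there), 10 without normalization between arrays (18.7% of all) and 9 of 43, or 20.9%, without replicates 4 to 7 (14.2% of all). Both Cyp2e1 probes, Cyp2c44, Cyp1b1, Cyp26b1, Cyp7b1, Cyp2s1 and Cyp51 were the 8 with the scanner's signals. Leaving out single mice gave 22 to 25. For the 50 partner, regulator, heme, sterol and retinoid genes the counts were 19, 14 and 21, and 47 to 51 with single mice left out. The median SD of expressed P450 probes, 0.19, was 0.24 without background subtraction, 0.32 with the scanner's ratio, 0.30 with the deposited table, 0.29 with median centring, 0.24 over probes above background on all 10 arrays, 0.14 with no filter and 0.14 without replicates 4 to 7. With median centring, 5 P450 probes were lowest and 5 highest in replicates 4 to 7. Median centring also gave r of 0.95 (Cyp2e1) and 0.98 (Cyp4b1) with adipocytes, 0.93 (Cyp1b1, stroma) and 0.91 (Cyp51, sterol synthesis), all past the threshold over 6 mice, and 0.12 for Cyp27a1 and macrophages. It left medians of the expressed probes between -0.14 and 0.53 over the arrays, an offset that gene and list share. It moved the mean log2 ratio of Cyp4b1 from -0.31 to 0.23. Within slides, r was -0.46 for Cyp1b1 and -0.59 for Cyp7b1 with stroma and -0.64 for Cyp4f18 with macrophages. Cyp26b1 and stroma had an r of -0.012 without replicates 4 to 7. For Cyp7b1 and stroma r ran from -0.10 to 0.25 as single mice were left out, negative without replicate 2 (-0.10) or 9 (-0.05). The causes were not tested. No paired analysis was possible because the mice form 1 group. Scalings compared for the order of replicates 4 to 7 were chosen after seeing the data.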
